A study of Danio rerio with 18 samples.

Results

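Proneural and neurogenic transcription factors were followed in zebrafish of strain AB at 52 hours post fertilization. The factors are ascl1a, atoh7, neurod6a, insm1b, hes6 and foxn4, and they were taken by name as the probe sets whose platform annotation gives 1 of these symbols. They are 6 of the 8793 genes named on the array and 8 of its 15502 probe sets, since foxn4 has 3 probe sets. The 18 Affymetrix arrays form 6 groups of 3: young (smarca4) mutant retina, wild type retina, mutant retina with the retinal pigment epithelium (RPE) attached, wild type RPE-attached retina, mutant whole embryo and wild type whole embryo. smarca4 encodes an ATPase of the SWI/SNF complexes, which move nucleosomes. The labels call each array a biological replicate made from its own pool. Pools held 10 embryos or tissues, with 2 exceptions. The mutant retina pool numbered 2 held 9, and the mutant RPE-attached pools held 6 each. Mutants were staged through their wild type siblings, a whole embryo includes the eyes, and an RPE-attached pool includes the retina.

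Proneural factors of the basic helix-loop-helix class switch on neuronal genes in dividing progenitors and also the Delta ligands, which activate Notch in neighbouring cells. Notch in turn induces Hes and Her repressors that hold those neighbours back as progenitors, so the balance of both systems sets how many cells leave the cycle at a time. In the vertebrate retina, ganglion cells form early and each neuron class draws on its own combination of these factors, many of which are present for a limited window in a cell's path from progenitor to neuron.

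Values are log2 signals on the array, differences are mutant minus wild type on the log2 scale ± SE, and n = 3 arrays per group. A difference was called at a limma adjusted p under 0.05 over the 15502 probe sets. Such p-values rest on a variance per probe set that is shared over the 6 groups, and the number of arrays limits the precision. SE, intervals and p-values therefore do not follow the spread of the compared groups alone. They can understate it for mutant RPE-attached arrays, whose spread was larger. Levels of different probe sets cannot be set against each other. The 6 factors and the 6 other lists were chosen with earlier results of these data known. Their shares beside those of all genes are descriptions and not independent support. In tissue pools, fewer cells of a type and less RNA per cell cannot be told apart.

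The labels were checked first. smarca4a was lower in mutants in retina (-2.26), RPE-attached retina (-1.64) and whole embryo (-2.43), with adjusted p in limma of 1.59e-09, 8.05e-08 and 3.91e-09. Of 10 retina identity genes 9 were measured, and their summed linear signal was 12820 to 15360 (mutant retina) and 13090 to 14920 (wild type retina), against 2494 to 3145 (mutant embryos) and 2155 to 2587 (wild type embryos). In RPE-attached pools the sum was 9992 to 12510 for mutants and 12350 to 12890 for wild type. Between these pools 5 of the 9 were called lower in mutants (55.6%, against 21.3% of all genes), 1 higher and 3 not. The sum over 9 of 15 RPE markers was 4267 to 4872 in mutant and 2914 to 4102 in wild type RPE-attached pools. In bare retina pools it was 768.1 to 971.9 for mutants and 816.2 to 1049 for wild type. Between the RPE-attached pools 5 of these 9 were called higher in mutants (55.6%, against 28.2% of all genes), 0 lower and 4 not. Mutant RPE-attached arrays stood apart in spread, with a median SD per probe set of 0.175 against 0.111 to 0.123 in the other groups, and in their hybridization controls, at 11.15 against 9.46 to 9.78. Wild type RPE-attached arrays stood apart in their poly-A controls, at 5.52 against 4.63 to 4.97 in the other groups. In the RPE-attached comparison pool size and genotype cannot be told apart. The labels give no array run or scan date, so tissue preparation and array handling cannot be told apart where RPE-attached and bare retina are compared.

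In the mutant retina, 4 of the 6 factors were higher than in wild type retina (ascl1a, hes6, insm1b and foxn4), neurod6a was lower, and atoh7 was not called. Of all genes, 10.1% were called higher and 9.5% lower in this comparison. The median difference was 1.29 over the 6 factors and 0.04 over all genes. The same 5 factors had arrays that did not overlap between the genotypes, 4 with mutants above and 1 with mutants below, against 19.3% and 15.3% of all genes.

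**Figure D1:**
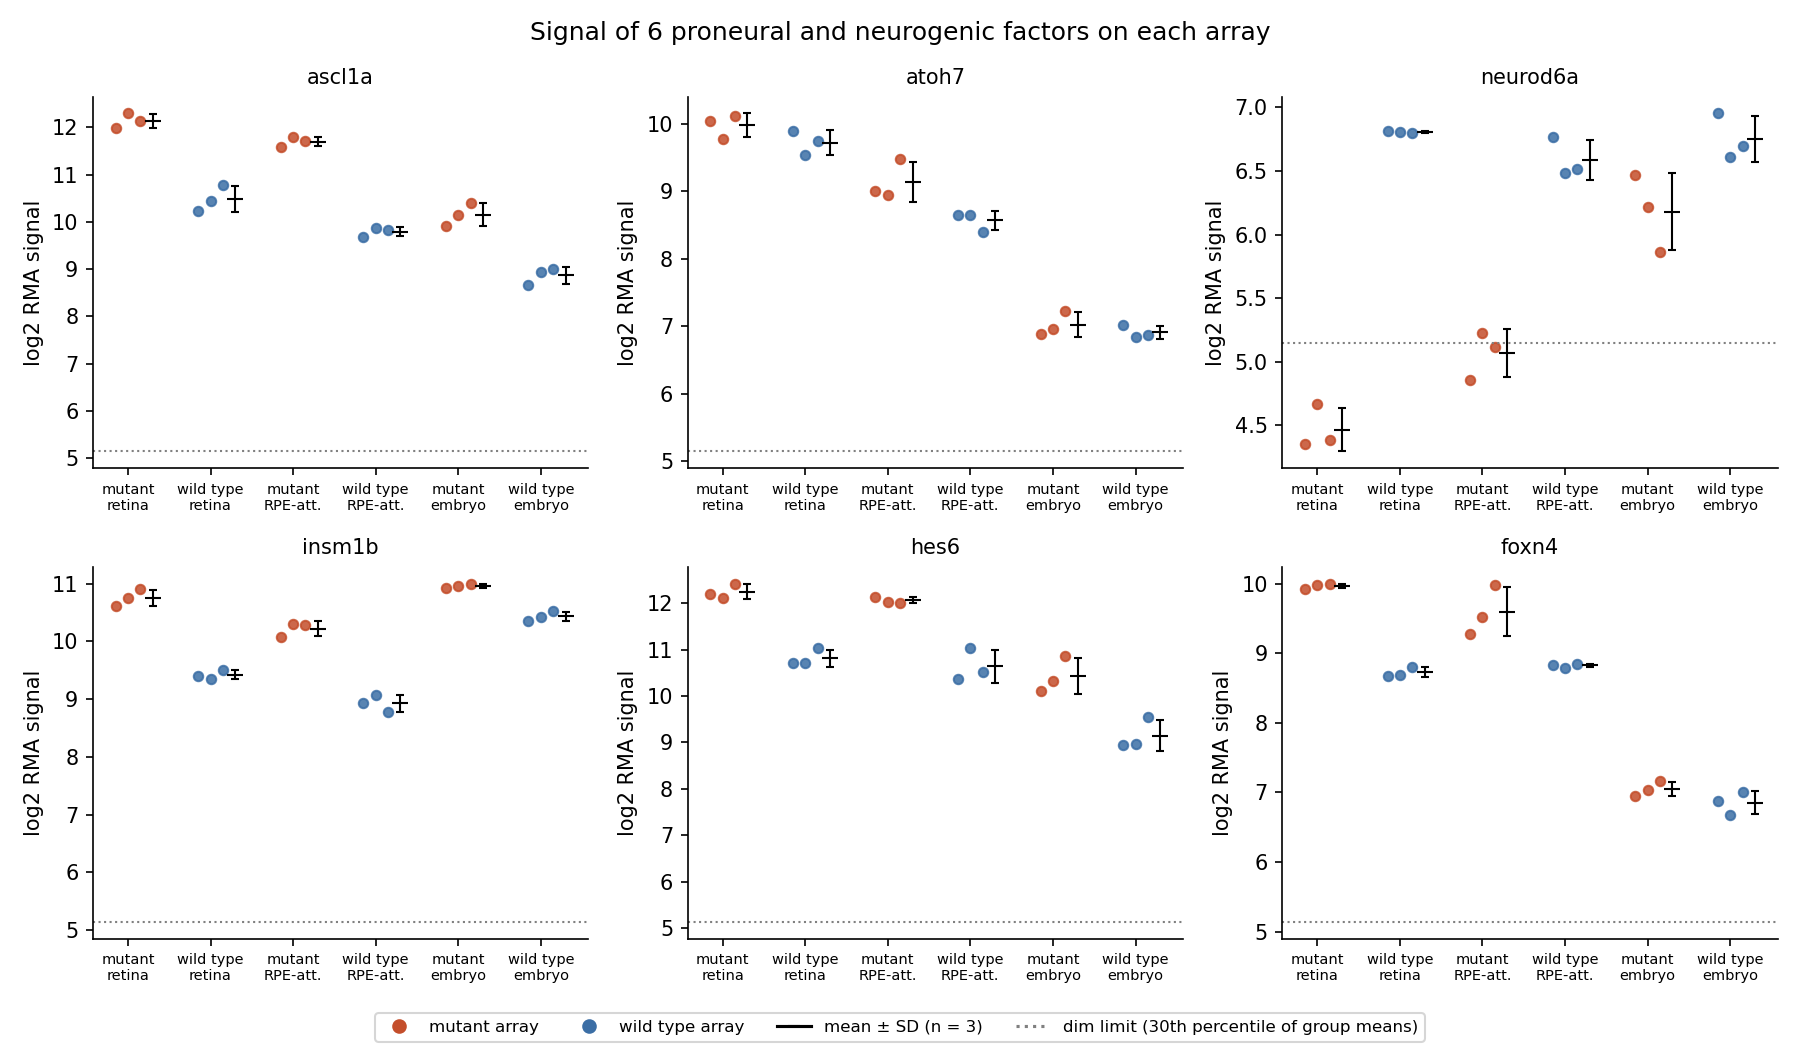
Log2 signal of the 6 factors in each of the 18 arrays, 1 panel per gene, with mutant groups left of their wild type groups. Points are arrays, and black marks are group means with SD; each panel has its own vertical axis, and the ascl1a, hes6 and insm1b points of the mutants lie above those of wild type in each of the 3 tissues.

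ascl1a, a proneural activator that in zebrafish is also needed when Muller glia return to a progenitor state in retinal regeneration, read 11.99, 12.29 and 12.13 in mutant retina, against 10.23, 10.45 and 10.78 in wild type retina. Every mutant array lay above every wild type array. The difference was 1.65 ± 0.14, or 3.14-fold (limma adjusted p = 3.89e-08), and it ranked 21 among the probe sets that were higher in mutant retina.

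hes6 belongs to the Hes family by sequence, but in the mouse it opposes Hes1 and favours neuronal differentiation. It read 12.20, 12.11 and 12.42 in mutant retina, against 10.71, 10.70 and 11.03 in wild type retina, with no overlap. The difference was 1.43 ± 0.19, or 2.69-fold (limma adjusted p = 1.34e-05).

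insm1b encodes a zinc-finger factor of neuronal and endocrine precursors. Its signals were 10.62, 10.75 and 10.90 in mutant retina, against 9.41, 9.35 and 9.51 in wild type retina, again without overlap. The difference was 1.34 ± 0.10, or 2.52-fold (limma adjusted p = 8.16e-09).

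foxn4 is a forkhead factor that in the mouse retina is needed for amacrine and horizontal cells. Its brightest probe set read 9.93, 9.97 and 9.99 in mutant retina, against 8.68, 8.69 and 8.81 in wild type retina, so the arrays of each genotype were close together and the genotypes were well apart. The difference was 1.24 ± 0.13, or 2.36-fold (limma adjusted p = 6.32e-07). The other 2 probe sets were higher in mutant retina by smaller amounts, at 0.54 ± 0.16 (adjusted p = 0.0213) for the one called dimmer probe set 1 here and 0.47 ± 0.11 (adjusted p = 0.00344) for dimmer probe set 2. Dimmer probe set 1 was no longer called without mutant retina replicate 1 (adjusted p = 0.0647) or 2 (adjusted p = 0.14), or without wild type retina replicate 1 (adjusted p = 0.0607) or 3 (adjusted p = 0.0684).

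neurod6a belongs to the NeuroD family, whose members act mostly in cells that are already becoming neurons; in the mouse, Neurod6 marks a subset of amacrine cells. It read 4.36, 4.67 and 4.38 in mutant retina, against 6.81, 6.80 and 6.79 in wild type retina. The difference was -2.33 ± 0.14 (limma adjusted p = 3.98e-10). No fold is given, because the mutant mean of 4.47 was under 5.15, the 30th percentile of all group means, where background limits the size of a change.

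atoh7, which zebrafish need to form retinal ganglion cells, was not called in retina. It read 10.04, 9.78 and 10.12 in mutant retina, against 9.89, 9.54 and 9.74 in wild type retina, and the arrays overlapped. The difference was 0.25 ± 0.14, with a 95% interval of -0.05 to 0.55 (limma adjusted p = 0.284).

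Lens markers moved with genotype in the bare retina pools. Of 13 lens genes 4 were measured, 3 were called higher, and their summed linear signal was 1472, 1628 and 336.4 in mutant retina replicates 1, 2 and 3 and 214.6 to 233.4 in wild type retina. The lowest mutant lens sum, that of replicate 3, was still above those of wild type retina. The summed signal of 16 measured brain and spinal cord markers of 22 was 792.1 to 924.7 in mutant retina and 1320 to 1508 in wild type retina, and 4 of them in mutant retina and 7 in wild type retina had means under 5.15; of the 16, 2 were called lower, 3 higher and 11 not. The lower ones, gbx2 (-1.78) and shha (-0.53), and the higher ones, en2b (1.60), otpb (0.60) and egr2b (0.46), are named here after their values were seen. In RPE-attached pools the brain and spinal cord sum was 746.8 to 851.3 in mutants and 1276 to 1307 in wild type. There 3 of the 16 were called lower, 2 higher and 11 not. Whether retinal cells gave part of this signal was not tested. The part of lens or brain cells in the differences of the 6 factors was not tested either.

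In whole embryos ascl1a, hes6 and insm1b were higher in mutants, neurod6a was lower, and foxn4 and atoh7 were not called. Of all genes, 3.73% were called higher and 3.66% lower. The median difference was 0.36 over the 6 factors and -0.00 over all genes. Arrays did not overlap for 3 factors above and 1 below, against 10.6% and 11.3% of all genes. Erythrocyte markers moved with genotype in embryos, with 5 of 9 measured called higher and 4 not called, a median of 0.64, and a summed linear signal of 22310 to 25100 in mutants and 20620 to 22490 in wild type. Their part in the differences of the 6 factors was not tested.

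ascl1a read 9.91, 10.14 and 10.41 in mutant embryos and 8.664, 8.937 and 8.999 in wild type embryos, a difference of 1.29 ± 0.14, or 2.44-fold (limma adjusted p = 6.79e-06). hes6 read 10.10, 10.32 and 10.86 in mutant embryos and 8.94, 8.97 and 9.54 in wild type embryos, a difference of 1.28 ± 0.19, or 2.42-fold (limma adjusted p = 0.000216). Neither gene's arrays overlapped, and they ranked 23 and 24 among probe sets higher in mutant embryos.

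insm1b read 10.93, 10.96 and 11.00 in mutant embryos and 10.36, 10.42 and 10.52 in wild type embryos. The genotypes did not overlap, and the difference was 0.53 ± 0.10, or 1.44-fold (limma adjusted p = 0.00264). neurod6a read 6.46, 6.22 and 5.86 in mutant embryos and 6.95, 6.61 and 6.69 in wild type embryos, with a small gap between the genotypes. It was 1.49-fold lower (-0.57 ± 0.14, limma adjusted p = 0.0174), but this call was lost without mutant embryo replicate 3 (adjusted p = 0.128), without wild type embryo replicate 1 (adjusted p = 0.0959) and with the 2 embryo groups fitted alone (adjusted p = 0.0955).

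foxn4 read 6.95, 7.03 and 7.16 in mutant embryos and 6.88, 6.68 and 7.01 in wild type embryos. The arrays overlapped and the difference was 0.19 ± 0.13 (95% interval -0.08 to 0.47, limma adjusted p = 0.576). atoh7 read 6.88, 6.96 and 7.23 in mutant embryos and 7.02, 6.84 and 6.87 in wild type embryos, a difference of 0.12 ± 0.14 (95% interval -0.18 to 0.42, limma adjusted p = 0.865).

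**Figure D2:**
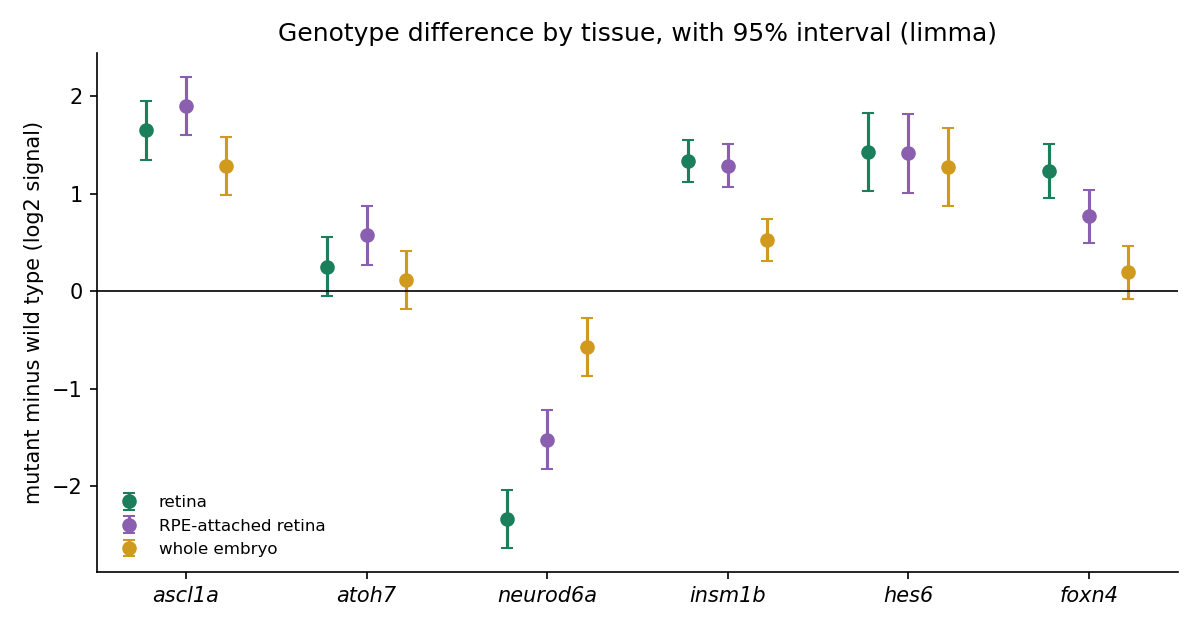
Mutant minus wild type difference in log2 signal of each factor in retina, RPE-attached retina and whole embryo, with 95% intervals from the fit over 18 arrays. neurod6a lies below 0 and ascl1a, hes6 and insm1b lie above 0 in each tissue, while the foxn4 difference is 1.24 in retina and 0.19 in whole embryo.

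Whether the genotype difference was larger in retina than in whole embryo was tested as an interaction. It was called, as retina minus embryo, for neurod6a at -1.76 ± 0.20 (limma adjusted p = 9.11e-06), for foxn4 at 1.04 ± 0.19 (adjusted p = 0.000891) and for insm1b at 0.81 ± 0.15 (adjusted p = 0.000993). Of all genes, 2.8% were called with a higher value in retina and 4.42% with a lower one. The interaction was not called for ascl1a (0.37, 95% interval -0.06 to 0.79), hes6 (0.15, 95% interval -0.42 to 0.72) or atoh7 (0.14, 95% interval -0.29 to 0.56). For foxn4, dimmer probe sets 1 and 2 gave 0.58 (limma adjusted p = 0.165) and 0.40 (adjusted p = 0.148). When the 12 embryo and bare retina arrays were blocked by replicate number, both were called (limma adjusted p = 0.0161 and 0.0131). The ascl1a interaction was still not called with that block (adjusted p = 0.0791). Embryo means of dimmer probe sets 1 and 2 were 5.35 and 5.28 in mutants and 5.39 and 5.21 in wild type. They lay close to 5.15, under which background limits the size of a change.

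**Figure D3:**
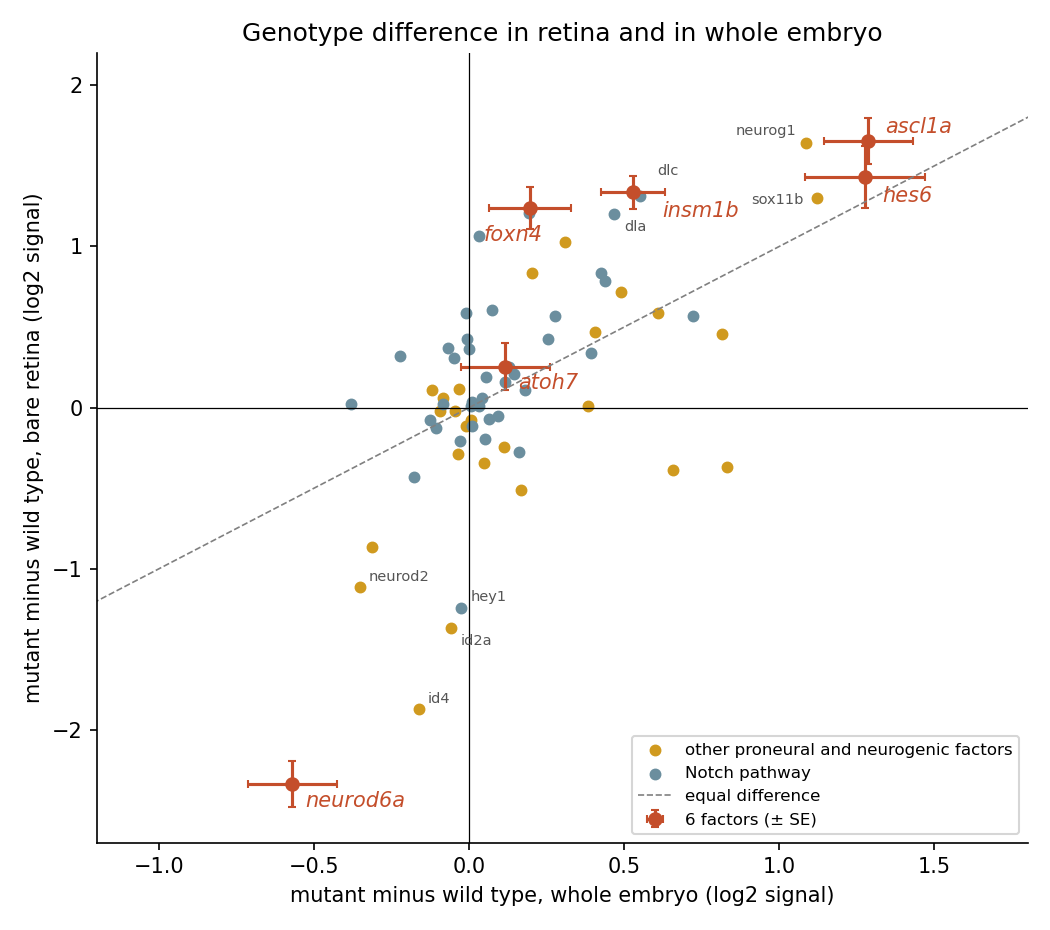
Mutant minus wild type difference in bare retina (vertical) against that in whole embryo (horizontal), both in log2 signal, for the 6 factors (with SE), other proneural and neurogenic factors and Notch pathway genes. ascl1a and hes6 lie near the dashed line of equal difference, foxn4 and insm1b above it and neurod6a below it.

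Retina was also set against whole embryo within each genotype. atoh7 was 7.75-fold higher in mutant retina than in mutant embryos (2.95 ± 0.14, limma adjusted p = 4.93e-13) and 7.04-fold higher in wild type retina than in wild type embryos (2.82 ± 0.14, limma adjusted p = 1.11e-12). It ranked 3 among probe sets higher in mutant retina and 22 among those higher in wild type retina. By its brightest probe set, foxn4 was 7.54-fold higher in mutant retina and 3.66-fold higher in wild type retina. Dimmer probe set 1 gave 3.13-fold and 2.09-fold, and dimmer probe set 2 gave 1.983-fold and 1.502-fold. The embryo means of both dimmer probe sets lay close to 5.15, so background may limit these folds. ascl1a was 3.96-fold higher in mutant retina and 3.07-fold higher in wild type retina, and hes6 3.52-fold and 3.17-fold.

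neurod6a was lower in mutant retina than in mutant embryos (-1.71 ± 0.14, limma adjusted p = 2.74e-09), whereas the wild type difference was 0.05 ± 0.14 (adjusted p = 0.761). insm1b was 2.02-fold lower in wild type retina than in wild type embryos (-1.01 ± 0.10, limma adjusted p = 6.5e-08). In mutants its difference was -0.20 ± 0.10 and not called (adjusted p = 0.0841), but it was called under the same replicate block (adjusted p = 0.017). In each genotype 4 factors were called higher and 1 lower; calls over all genes ran to 48.7% up and 24.1% down between the mutant tissues, and to 46.2% and 22.4% between the wild type tissues. The median over all genes was 0.27 in mutants and 0.26 in wild type, and 0.40 and 0.37 after subtraction of array medians.

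In RPE-attached retina 5 factors were higher in mutants and neurod6a was lower, in a comparison where 28.2% of all genes were called higher and 21.3% lower. The 5 include foxn4 by its brightest probe set, and its probe sets conflicted here. The median was 1.03 over the 6 factors and 0.06 over all genes, and none of the 6 overlapped between genotypes on the brightest probe set, against 30.8% of genes apart upward and 23.4% downward. ascl1a read 11.59, 11.79 and 11.71 in mutant and 9.68, 9.87 and 9.84 in wild type RPE-attached retina, a 3.74-fold difference (1.90 ± 0.14, limma adjusted p = 4.53e-09). hes6 was 2.67-fold higher (1.42 ± 0.19, limma adjusted p = 7.16e-06), from arrays at 12.13, 12.03 and 12.01 in mutant and 10.36, 11.04 and 10.53 in wild type.

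insm1b read 10.08, 10.31 and 10.28 in mutant and 8.94, 9.07 and 8.78 in wild type RPE-attached retina and was 2.45-fold higher (limma adjusted p = 9.82e-09). atoh7 read 9.01, 8.94 and 9.48 in mutant and 8.65, 8.66 and 8.40 in wild type, and here it was called higher, by 1.49-fold (0.57 ± 0.14, limma adjusted p = 0.00286). The test of atoh7's genotype difference in RPE-attached against bare retina was not called (0.32, 95% interval -0.10 to 0.74, adjusted p = 0.283), so a difference between the 2 preparations was not shown. neurod6a read 4.86, 5.23 and 5.12 in mutant and 6.76, 6.48 and 6.51 in wild type RPE-attached retina (-1.52 ± 0.14, limma adjusted p = 8.01e-08), and its mutant mean of 5.07 was again under 5.15.

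foxn4 gave conflicting probe sets in this comparison. The brightest read 9.28, 9.53 and 9.97 in mutant and 8.83, 8.79 and 8.84 in wild type RPE-attached retina, 1.70-fold higher (0.77 ± 0.13, limma adjusted p = 9.41e-05). Dimmer probe set 1 read 5.98, 6.37 and 6.48 in mutant and 6.56, 6.66 and 7.13 in wild type and was called lower (-0.51 ± 0.16, limma adjusted p = 0.014), but not without mutant RPE-attached replicate 1 (adjusted p = 0.0843) or wild type RPE-attached replicate 3 (adjusted p = 0.106). Dimmer probe set 2 read 5.91, 6.09 and 6.39 in mutant and 6.44, 6.26 and 6.21 in wild type, with overlap, and was not called (-0.17 ± 0.11, adjusted p = 0.203); without mutant RPE-attached replicate 3 it was called lower (-0.30, adjusted p = 0.0187). The direction of foxn4 in RPE-attached retina therefore depends on the probe set, while in bare retina the 3 probe sets had 1 direction.

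**Figure D4:**
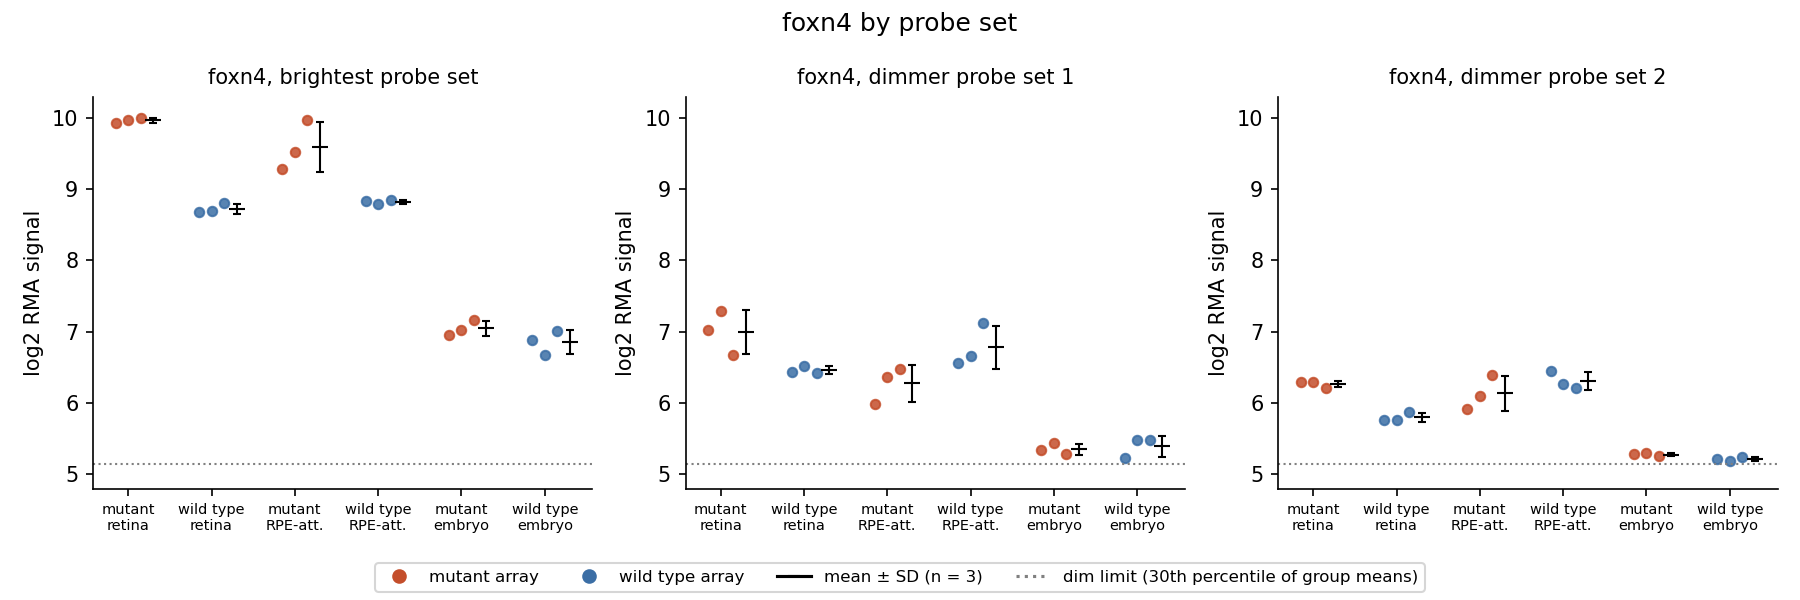
Log2 signal of the 3 foxn4 probe sets in the 18 arrays, 1 panel each, mutants left of wild type, points for arrays and black marks for group means with SD. In bare retina the mutant arrays lie above wild type in each panel; in RPE-attached retina they lie above for the brightest probe set and below for dimmer probe set 1.

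The genotype difference in RPE-attached minus that in bare retina was called for 1 of the 6 factors, neurod6a (0.82 ± 0.20, limma adjusted p = 0.0085), in a test where 12.5% of all genes were called higher and 9.34% lower. The neurod6a means of both mutant retina groups in this test were under 5.15. For the brightest foxn4 probe set it was -0.47 ± 0.19 (adjusted p = 0.0831), and without mutant RPE-attached replicate 3 it was called (-0.66, adjusted p = 0.00537). Dimmer probe set 1 of foxn4 (-1.04 ± 0.23, adjusted p = 0.00333) and dimmer probe set 2 (-0.64 ± 0.15, adjusted p = 0.00637) were called lower. Crest and mesenchyme markers, 7 of 8 measured, summed to 2111 to 2382 in mutant and 1328 to 1516 in wild type RPE-attached pools; in bare retina pools the sums were 444.4 to 506.7 in mutant and 545.5 to 599.4 in wild type. Muscle markers, 12 of 14 measured, summed to 906.3 to 1597 in mutant and 1101 to 1362 in wild type RPE-attached pools, and erythrocyte markers, 9 of 11 measured, to 3857 to 4252 in mutant and 3899 to 5476 in wild type. Singly, 4 of these 9 erythrocyte markers were called higher in mutant RPE-attached pools (44.4%, against 28.2% of all genes), 0 lower and 5 not, with a median of 0.17. The part of these cells, of pool size and of array handling in these differences was not tested.

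In the RPE-attached pools, signals of several factors were lower than in bare retina pools of the same genotype. Control signals of the RPE-attached arrays also stood apart, and the part of array handling in the differences was not tested. In mutants atoh7 (-0.83, limma adjusted p = 0.000143), insm1b (-0.54, adjusted p = 0.000433), ascl1a (-0.44, adjusted p = 0.0202) and foxn4 (-0.37, adjusted p = 0.0314) were lower, neurod6a was higher (0.60, adjusted p = 0.00268) and hes6 was not called, where 24.3% of all genes were called higher and 18.3% lower. Both neurod6a means, 5.07 with the RPE and 4.47 without, were under 5.15, where background limits the size of a change. The ascl1a call was lost without mutant retina replicate 2 (adjusted p = 0.083) or mutant RPE-attached replicate 1 (adjusted p = 0.0652), and the foxn4 call was lost in 5 of 6 fits that left out 1 array (highest adjusted p = 0.18, without mutant RPE-attached replicate 1). In wild type atoh7 (-1.15, limma adjusted p = 1.49e-05), ascl1a (-0.69, adjusted p = 0.00142) and insm1b (-0.49, adjusted p = 0.00156) were lower and 3 factors were not called, where 15.4% of all genes were called higher and 15.5% lower. For foxn4 these counts use the brightest probe set. Dimmer probe set 1 was called lower in mutants (-0.72, limma adjusted p = 0.00146) and not called in wild type (0.32, adjusted p = 0.137), and dimmer probe set 2 was not called in mutants (-0.13, adjusted p = 0.347) and higher in wild type (0.51, adjusted p = 0.00165).

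Across the 6 groups the factors fell into different orders. ascl1a was highest in mutant retina, followed by mutant RPE-attached retina, wild type retina, mutant embryo, wild type RPE-attached retina and wild type embryo, and its only neighbours with overlapping arrays were mutant embryos (mean 10.15) and wild type retina (mean 10.48). hes6 was highest in both mutant retina preparations, at 12.24 and 12.06, whose arrays overlapped. After a gap without overlap came wild type retina, wild type RPE-attached retina and mutant embryo, each overlapping the next, and then, without overlap, wild type embryo at 9.15. atoh7 followed tissue: bare retina, RPE-attached retina, whole embryo, with the genotypes overlapping in bare retina and in embryos.

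insm1b was highest in mutant embryo (10.96 ± 0.04, SD, n = 3), above mutant retina (10.76 ± 0.14), wild type embryo (10.43 ± 0.08), mutant RPE-attached retina (10.22 ± 0.12), wild type retina (9.42 ± 0.08) and wild type RPE-attached retina (8.93 ± 0.15). Arrays of neighbouring groups did not overlap, although the 95% interval of the gap included 0 between mutant embryo and mutant retina (-0.01 to 0.42) and between mutant RPE-attached retina and wild type embryo (gap of wild type embryo over mutant RPE-attached retina, -0.00 to 0.43). neurod6a divided by genotype across the tissues, with wild type retina (6.80), wild type embryo (6.75) and wild type RPE-attached retina (6.59) highest. Mutant embryo (6.18), mutant RPE-attached retina (5.07) and mutant retina (4.47) lay below them. The neurod6a arrays of wild type embryo overlapped those of both wild type retina preparations, which did not overlap each other. By its brightest probe set, foxn4 ran from mutant retina (9.96) and mutant RPE-attached retina (9.59), which overlapped, through wild type RPE-attached retina (8.82) and wild type retina (8.73), which overlapped, to mutant embryo (7.05) and wild type embryo (6.85), which overlapped too. On dimmer probe sets 1 and 2 the order differed, with wild type RPE-attached retina (6.78 and 6.30) above mutant RPE-attached retina (6.27 and 6.13).

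A wider list of other proneural and neurogenic factors divided in both directions. It also holds id genes, whose products inhibit helix-loop-helix factors. Of its 47 genes 26 were measured, and their median in mutant retina was -0.02. There 6 were higher (23.1%, against 10.1% of all genes), 6 lower (23.1%, against 9.5%) and 14 not called. sox11b, an SRY-box factor of newborn neurons, was 2.47-fold higher (1.30 ± 0.12, limma adjusted p = 1.44e-07) and olig2, a helix-loop-helix factor of the oligodendrocyte and motor neuron lineages, 1.79-fold higher (0.84 ± 0.12, adjusted p = 2.63e-05). id4 and id2a, inhibitors that bind helix-loop-helix partners without binding DNA, were 3.66-fold lower (-1.87 ± 0.14, limma adjusted p = 7.71e-09) and 2.58-fold lower (-1.37 ± 0.11, adjusted p = 7.82e-09).

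In mutant embryos 6 of these 26 genes were higher (23.1%, against 3.73% of all genes) and 20 not called. With the replicate block 1 was lower, and without mutant embryo replicate 3 the higher genes numbered 3. sox11b (1.12 ± 0.12, limma adjusted p = 6.22e-06), sox11a (0.83 ± 0.11, adjusted p = 2.9e-05), myt1a, a zinc-finger factor of early neurons (0.81 ± 0.13, adjusted p = 0.000345), and the proneural factor neurog1 (1.09 ± 0.24, adjusted p = 0.00628) were higher. The sox11a means lay the other way in bare retina, at 10.73 in mutants and 11.10 in wild type. The neurog1 call in embryos was lost without mutant embryo replicate 3 (limma adjusted p = 0.0501). In bare retina neurog1 averaged 8.69 in mutants and 7.05 in wild type, and the arrays did not overlap. With the RPE attached it averaged 8.92 in mutants and 7.08 in wild type, again without overlap. In RPE-attached retina 12 of the 26 genes were higher (46.2%, against 28.2% of all genes) and 7 lower (26.9%, against 21.3%).

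Among paralogues of the factors, ascl1b and neurod6b were measured. ascl1b averaged 6.06 in mutant retina and 6.45 in wild type retina (-0.39 ± 0.16, limma adjusted p = 0.106), but 9.01 in mutant embryos and 8.36 in wild type embryos, where it was called higher (0.66 ± 0.16, adjusted p = 0.0126). The interaction was called (-1.04 ± 0.22, adjusted p = 0.00436). The embryo call was lost without mutant embryo replicate 3 (adjusted p = 0.0862), wild type embryo replicate 1 (adjusted p = 0.0615) or 2 (adjusted p = 0.0535). neurod6b averaged 5.27 in mutant retina and 5.16 in wild type retina and was not called (adjusted p = 0.786), nor was it in embryos (-0.12, adjusted p = 0.905). In RPE-attached retina neurod6b was called higher (1.01 ± 0.18, limma adjusted p = 0.000109), with a wild type mean of 4.65 that was under 5.15, and ascl1b was called lower (-0.62 ± 0.16, adjusted p = 0.00325).

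Notch pathway genes were measured for 38 of 62. In mutant retina 13 were higher (34.2%, against 10.1% of all genes), 2 lower (5.26%, against 9.5%) and 23 not called, with a median of 0.20. The Delta ligand genes dlc and dla were 2.49-fold higher (1.31 ± 0.11, limma adjusted p = 1.82e-08) and 2.30-fold higher (1.20 ± 0.13, adjusted p = 1.27e-06). nrarpa, a Notch target that limits Notch signalling, was 1.78-fold higher (0.83 ± 0.13, adjusted p = 5.42e-05), whereas hey1, a Hes-related repressor and Notch target, was 2.37-fold lower (-1.24 ± 0.12, adjusted p = 1.08e-07). Some her genes of the list have near-identical copies in the genome, so their single values are uncertain and are not given. The counts of this list include any her genes that were measured, and counts without them were not made.

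In mutant embryos 4 Notch pathway genes were higher (10.5%, against 3.73% of all genes) and 1 lower (2.63%, against 3.66%), and 7 were higher with the replicate block. dlc (0.55 ± 0.11, limma adjusted p = 0.00269) and the ligand gene jag1a (0.72 ± 0.15, adjusted p = 0.00396) were among the 4. The lower gene, heyl, averaged 3.89 in mutant embryos and 4.27 in wild type embryos, both under 5.15, where background limits the size of a change. It lost its call in each fit that left out 1 array (limma adjusted p of 0.0746 to 0.139). The higher genes numbered 2 to 4 in those fits, with 2 without wild type embryo replicate 1 or 2 and without mutant embryo replicate 1 or 3. In RPE-attached retina 17 were higher (44.7%, against 28.2% of all genes) and 8 lower (21.1%, against 21.3% of all genes), and 5 were lower without mutant RPE-attached replicate 2.

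**Figure D5:**
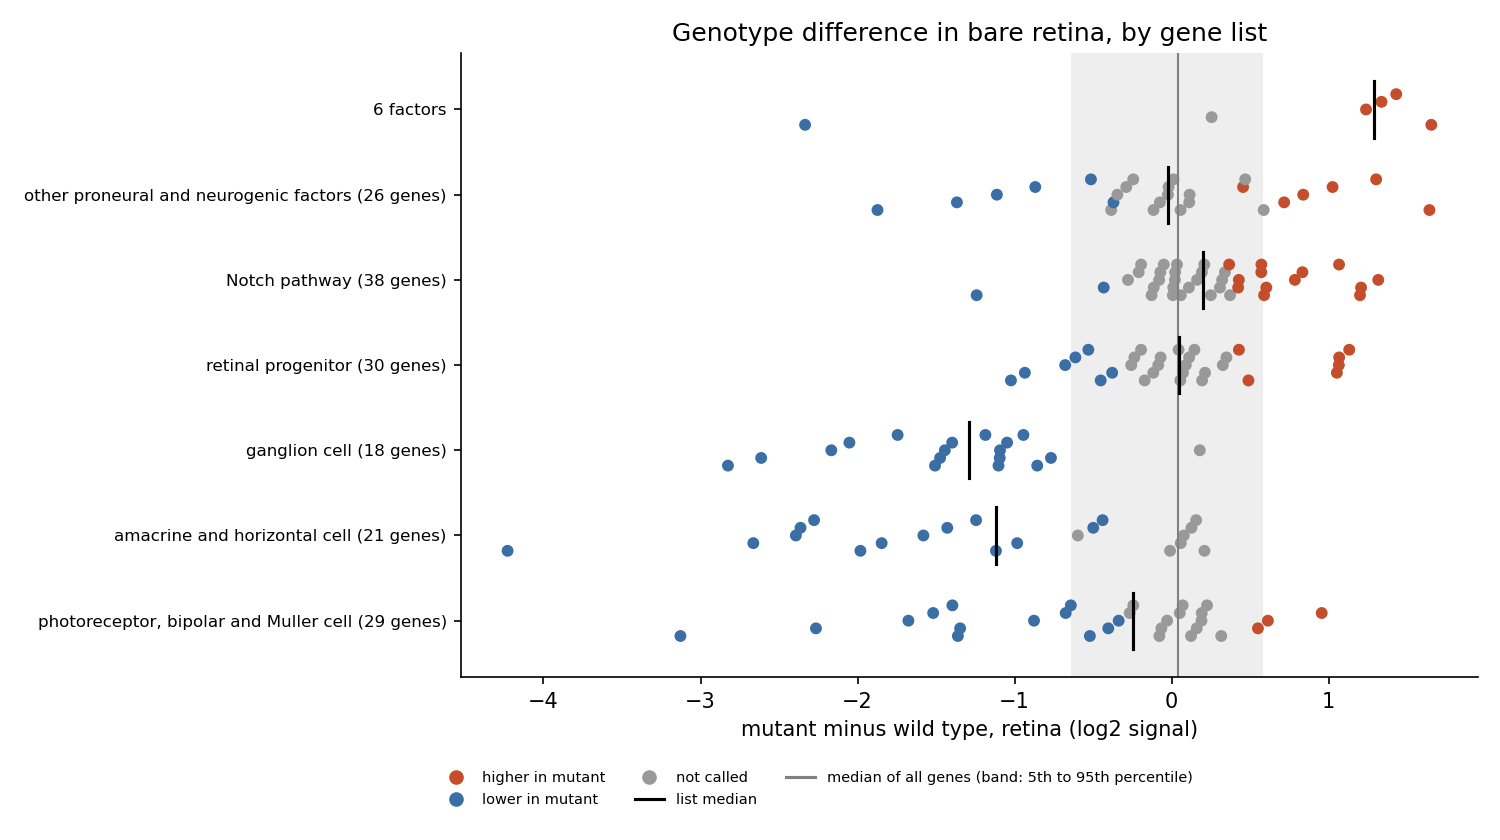
Mutant minus wild type difference in bare retina (log2 signal) for each measured gene of the 6 factors and of 6 lists, coloured by call, with the list medians and, in grey, the median and the 5th to 95th percentile of all genes. The 4 called-higher factors lie right of the grey band, and 17 of 18 ganglion cell genes and 14 of 21 amacrine and horizontal cell genes are called lower.

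Genes of differentiated retinal cell classes were set beside the factors, in lists chosen with earlier results of these data known. The ganglion cell list is not confined to the retina. Between wild type tissues, 8 of its 18 measured genes were higher in retina than in embryo (44.4%, against 46.2% of all genes). Another 4 were lower (22.2%, against 22.4%) and 6 were not called. Whether lower signals of this list were particular to ganglion cells was not tested. Of 18 measured ganglion cell genes (33 listed) 17 were lower in mutant retina (94.4%, against 9.5% of all genes) and 1 was not called, with a median of -1.29. irx4a, a homeobox gene of ganglion cells, averaged 7.54 in mutant retina and 10.36 in wild type retina (-2.83 ± 0.12, limma adjusted p = 2.61e-12), and gap43, a growth cone gene, 7.67 and 9.72 (-2.05 ± 0.12, adjusted p = 1.32e-10). atoh7 was not called in the same arrays. Of 21 amacrine and horizontal cell genes (36 listed) 14 were lower (66.7%) and 7 not called, with a median of -1.12. Among the lower ones was slc32a1, the vesicular transporter of inhibitory transmitters, at 6.94 in mutant retina and 9.60 in wild type retina (-2.66 ± 0.12, limma adjusted p = 6.43e-12). The brightest foxn4 probe set was higher in the same arrays. Of 29 photoreceptor, bipolar and Muller cell genes (41 listed) 13 were lower and 3 higher, and 5 were higher with the replicate block. Of 30 retinal progenitor genes (36 listed) 7 were lower (23.3%, against 9.5% of all genes) and 6 higher (20%, against 10.1%), with a median of 0.05. Among the 4 with the smallest p, nr2e1 (1.13), sox3 (1.06) and ccnd1 (1.07) were called higher and meis1b (-1.02) lower.

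For each factor the genes with the most similar profile over the 18 arrays were found among 3664 genes whose group means spanned at least 1 log2 unit. The factors themselves and clone or predicted gene names were left out of this search, so likeness between factors is not ranked here. These correlations are descriptions, and the arrays share tissue and genotype, which set most of the spread. ascl1a was most like mybl1 (Pearson r = 0.974), btg3 (0.963) and rtca (0.961), and hes6 was most like btg2 (0.973), mybl1 (0.969) and tipin (0.967), so mybl1 stood on both lists. atoh7 was most like smc3 (0.975), wdr82 (0.974) and acat2 (0.973), and foxn4 most like olig2 (0.983), esco2 (0.982) and rimkla (0.980). neurod6a was most like atp2b3a (0.981), evlb (0.978) and stxbp5a (0.962), and insm1b most like sh3glb1a (0.945), etv5b (0.937) and nt5dc2 (0.933).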

How the data were processed

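The deposited values are log2 signals that the authors made from Affymetrix zebrafish arrays by the robust multiarray average, per the series' design text. The submitters' processing notes name RMA, affy and R 2.2.0. Of 15617 probe sets, 115 controls were left out; 10795 of the 15502 tested had 1 gene symbol, 135 several and 4572 none. Symbols are those of the platform annotation, and 1 was updated through the Entrez identifier.

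A mean for each of the 6 groups was fitted over 18 arrays in limma 3.58.1 (R 4.3.3) with empirical Bayes moderation and Benjamini-Hochberg adjustment, and the procedure was tested on simulated data. Where a gene has several probe sets, counts use the one with the brightest mean over all arrays. SE come from the moderated variance. Figures used Python 3.11.15 and matplotlib 3.10.9. The 6 factors and the 6 other lists were chosen with earlier results of these data known. Named genes are the factors, their paralogues, up to 4 genes per list and genotype comparison with the smallest p, and 3 genes per factor by correlation.

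Same-numbered arrays deviated together among the embryo and bare retina groups (correlations 0.294 to 0.598 across genes) but not in pairs with an RPE-attached group (-0.201 to 0.156), so the replicate number was used as a block over the 12 embryo and bare retina arrays as an alternative. Other alternatives were the 0.001 threshold of the series design, a 2-fold minimum, a filter on dim probe sets, 1 probe set per gene, quantile normalization, subtraction of array medians, robust trended moderation, array weights, other sets of arrays and leaving out each array.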

Additional observations from a re-analysis of the deposited data

Results flagged for a closer look

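The genotype difference differed between retina and whole embryo, by the interaction test, for neurod6a (-1.76), insm1b (0.81) and foxn4 (1.04, brightest probe set). It differed between RPE-attached and bare retina for neurod6a (0.82), and for dimmer foxn4 probe sets 1 (-1.04) and 2 (-0.64). Each interaction was called in limma at an adjusted p under 0.05. The neurod6a means of both mutant retina groups were under 5.15, where background limits the size of a change.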

How the results depend on the processing

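Of the tests of the 6 factors, each by its brightest probe set, under settings other than leaving out an array, 570 kept their direction and side of the threshold, 27 lost a call, 3 gained one and 0 reversed. Of those that left out 1 array, 373 were kept, 9 lost a call, 2 gained one and 12 changed sign, none of them called. Those sign changes, and 1 more for dimmer foxn4 probe set 1 in embryos, gave ranges of -0.13 to 0.00310 for that probe set, -0.0430 to 0.37 for hes6 and the difference between retina and embryo, -0.0208 to 0.15 for neurod6a in wild type retina against embryo, and, for the difference between RPE-attached and bare retina, -0.15 to 0.18 for hes6 and -0.12 to 0.0265 for insm1b. In embryos 4 factors were called, 2 at a threshold of 0.001 and 2 with at least 2-fold. In wild type RPE-attached against bare retina 3 were called, 1 at 0.001 and 1 with 2-fold. In mutants 5 were called, 2 at 0.001, 0 with 2-fold, 3 after quantile normalization and 3 to 5 with an array left out. The genotype difference between RPE-attached and bare retina was called for 1, 0 at 0.001, 0 with 2-fold, 2 with a block over all 18 arrays and 1 to 2 with an array left out. Over all genes, calls in retina numbered 1723 (706 at 0.001, 342 with 2-fold, 2937 with the replicate block over 12 arrays), in embryos 650 (158, 86 and 1541) and for their difference 635 (226, 274 and 1401). In RPE-attached retina they numbered 4351 (2083 at 0.001 and 729 with 2-fold). At 0.001 and with 2-fold, retina against embryo gave 4118 and 1947 of 6404 in mutants and 3724 and 1600 of 6031 in wild type, RPE-attached against bare retina 1443 and 400 of 3754 in mutants and 712 and 126 of 2711 in wild type, and the genotype difference between those preparations 249 and 297 of 1922. The replicate block over 12 arrays changed no member call other than those given beside their results. With 3 arrays a group, the interval of atoh7 in bare retina ran from -0.05 to 0.55 in the fit over 18 arrays without a block. Dim signals limit what neurod6a can show in mutant retina.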
